A study of Homo sapiens with 6 samples.

Results

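Valproic acid (VPA) inhibits histone deacetylases, and the genes described here encode its class I targets together with the proteins that carry them to chromatin. The 9 genes are *HDAC1*, *HDAC2*, *HDAC3*, *RBBP4*, *MTA1*, *MTA2*, *MTA3*, *CHD4* and *NCOR1*. They were taken from a list of symbols and all 9 were found among the 47470 genes of the count files. RNA-seq was performed in HEK293T, an established human line derived from embryonic kidney that expresses SV40 large T antigen, after 1 day in fresh medium with 1 mM VPA or in fresh medium without it. There were 3 untreated and 3 VPA-treated libraries of wild-type cells, and the untreated cells received no agent, with no vehicle named in the labels. All 6 libraries come from this 1 line, and nothing in the labels says that the replicates of a condition were separate cultures, so the p-values measure the spread between these libraries, which may be technical.

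The class I deacetylases HDAC1, HDAC2 and HDAC3 remove acetyl groups from histone tails and act inside multi-subunit complexes rather than alone. HDAC1 and HDAC2 are close relatives that form the catalytic core of the NuRD, SIN3, CoREST and MiDAC complexes, whereas HDAC3 is activated by the corepressor complex that NCOR1 scaffolds. In NuRD, the MTA proteins are the scaffold that binds the deacetylase, RBBP4 (also called RbAp48) is the histone chaperone that binds histones, and CHD4 (Mi-2 beta) is the ATP-dependent nucleosome remodeller. VPA acts on the enzymes themselves, so the comparison below asks a separate question, namely whether the transcripts of the enzymes and of their partners differed after treatment.

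Counts on genes totalled 18622267 to 18828495 per library, and the low-count filter of edgeR kept 15298 genes. Values called normalized counts were scaled by TMM, which assumes that most genes do not change, to the mean library. A gene is called higher or lower in VPA-treated cells at an adjusted p under 0.05 in edgeR's quasi-likelihood test over these 15298 genes. Gene positions are those of RefSeq on GRCh38.p14. The kidney-line markers *VIM*, *KRT8*, *KRT18*, *NEFL*, *NEFM* and *PAX2* were all counted. Their summed level was 17196 to 17716 normalized counts in untreated and 20556 to 21869 in VPA-treated libraries. *VIM*, the largest part of it, was lower at -0.27 in log2 (adjusted p = 5.23e-06, edgeR), and the other 5 were higher. The 12 markers of other cell types summed to 448 to 495 and 1540 to 1707 normalized counts, of which *COL1A1* was the largest part, and the 4 of them that passed the filter (*DCN*, *LUM*, *COL1A1* and *GFAP*) were all higher. The other 8, among them *PTPRC*, *PECAM1*, *ALB* and *HBB*, were at 0 to 5 counts in each library. The part of these markers in the results was not tested.

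Of the 9 genes, 6 were lower in VPA-treated cells, 0 were higher and 3 were not called on the TMM scale in edgeR. At an unadjusted p under 0.05, and with DESeq2, 0 were higher as well. None passed the study's pair of thresholds, in which an adjusted p under 0.05 is joined by a 2-fold difference, that is 1 on the log2 scale. The decreases were small, with log2 fold changes from -0.12 to -0.37 on the TMM scale. The genes that were lower encode HDAC3, the scaffolds MTA1 and MTA2, the chaperone RBBP4, the remodeller CHD4 and the corepressor NCOR1. *HDAC1*, *HDAC2* and *MTA3* were the genes not called. Among all genes tested, 30.0% were called lower and 32.9% higher. Among the 7242 genes whose mean normalized count was 500 or more, a class to which all 9 genes belong and which was set after the counts were seen, 49.7% were called lower and 19.4% higher. The median log2 fold change of the 9 genes was -0.14, against -0.12 for that class and 0.01 for all genes tested. Small decreases were common among well-counted genes, so the count of 6 in 9 is to be read against these shares. In 5 of the 9 genes every VPA-treated library lay below every untreated one, against 31.0% of all genes tested and 50.4% of the well-counted ones, and in 0 did every VPA-treated library lie above, against 34.8% and 20.7%. Without VPA-treated replicate 2 the count was 5, since *NCOR1* then had an adjusted p of 0.078 in edgeR.

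The direction of 4 of the 6 decreases, those of *HDAC3*, *MTA1*, *CHD4* and *NCOR1*, depended on how the libraries were scaled, whereas *MTA2* and *RBBP4* were negative at all 5 scalings. The median log2 fold change of all genes tested was 0.01 with TMM, 0.07 with upper quartile scaling, 0.14 with library totals and 0.28 when the ribosomal protein genes were held constant. Scaled on library totals, 3 of the 9 genes were higher and 3 lower, and scaled on ribosomal protein genes, 5 were higher and 1 lower. Of the 15298 genes tested, 6713 were higher and 2372 lower with library totals. With ribosomal protein scaling 9357 were higher and 833 lower. A scaling shifts all genes together, so the position of each gene relative to the median gene stays fixed by construction. It differed by less than 0.01 between the 5 scalings for each of the 9. On that relative scale *MTA2* was at -0.37, *RBBP4* at -0.33, *HDAC3* at -0.27, *MTA1* at -0.19, *CHD4* at -0.15 and *NCOR1* at -0.12. *HDAC2* was at -0.0038 to -0.0035, *HDAC1* at 0.01 and *MTA3* at 0.09. The place of the genes differed when the median of the well-counted genes was used, with TMM. *MTA2* was then at -0.25, *RBBP4* at -0.20, *HDAC3* at -0.14, *MTA1* at -0.07 and *CHD4* at -0.02. *NCOR1* was at 0.0027, *HDAC2* at 0.12, *HDAC1* at 0.14 and *MTA3* at 0.21. By the same construction the 9 genes stood in the same order at all 5 scalings, and only their place relative to 0 differed.

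**Figure D1:**
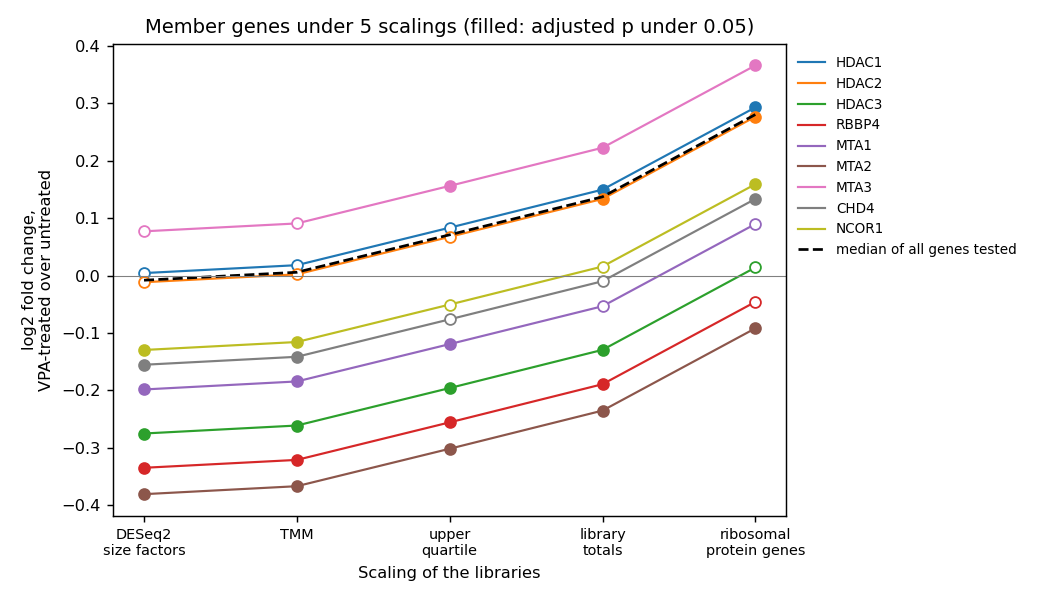
Log2 fold changes (VPA-treated over untreated, vertical axis) of the 9 genes under 5 scalings of the libraries (horizontal axis), with filled points at an adjusted p under 0.05 in edgeR and a dashed line for the median of all genes tested. By construction all lines run parallel to the dashed one, on which *HDAC1* and *HDAC2* lie. *MTA2* is lowest and called lower at each of the 5 scalings.

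*HDAC1* and *HDAC2* lay near the median of all genes tested, while *HDAC3* and *MTA2* lay below it. For this reason the sequences before the transcription starts of the 3 deacetylase genes and of *MTA2* are shown. Each is the 250 bases upstream of the RefSeq start on GRCh38.p14, 5′ to 3′ on the gene's strand, with matches to the GC box GGGCGG and the CCAAT box on either strand in capitals.
HDAC1, chr1:32291833-32292082, plus strand: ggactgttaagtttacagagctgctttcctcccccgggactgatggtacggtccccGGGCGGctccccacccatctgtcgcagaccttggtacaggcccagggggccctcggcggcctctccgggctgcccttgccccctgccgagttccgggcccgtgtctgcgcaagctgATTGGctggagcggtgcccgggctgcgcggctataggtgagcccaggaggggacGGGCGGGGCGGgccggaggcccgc
HDAC2, chr6:113971149-113971398, minus strand: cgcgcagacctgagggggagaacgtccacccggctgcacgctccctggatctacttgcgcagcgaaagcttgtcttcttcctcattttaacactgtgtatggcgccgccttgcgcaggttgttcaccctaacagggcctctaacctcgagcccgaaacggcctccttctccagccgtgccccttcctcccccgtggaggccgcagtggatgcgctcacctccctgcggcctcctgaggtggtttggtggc
HDAC3, chr5:141636850-141637099, minus strand: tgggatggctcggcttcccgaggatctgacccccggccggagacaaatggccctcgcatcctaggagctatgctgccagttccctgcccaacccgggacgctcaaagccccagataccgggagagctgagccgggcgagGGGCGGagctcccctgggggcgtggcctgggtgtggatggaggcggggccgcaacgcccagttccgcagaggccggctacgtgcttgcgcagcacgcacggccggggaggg
MTA2, chr11:62601866-62602115, minus strand: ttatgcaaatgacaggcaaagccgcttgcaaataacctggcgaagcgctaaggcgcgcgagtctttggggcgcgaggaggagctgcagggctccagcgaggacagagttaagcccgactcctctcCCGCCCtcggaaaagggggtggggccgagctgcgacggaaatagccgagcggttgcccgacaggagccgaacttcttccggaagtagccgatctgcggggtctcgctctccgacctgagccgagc
*HDAC1* had 3 matches to the GC box, beginning 194, 24 and 19 bases before the start, of which the last 2 share 1 base, and 1 match to the CCAAT box beginning 78 bases before it. *HDAC2* had 0 matches to either motif in this window. *HDAC3* and *MTA2* had 1 GC box each, beginning 111 and 125 bases before the start. A second window listed for *MTA2*, which lies inside the span of the gene, also held 1. Of the genes not shown, *MTA3* had 4 GC boxes in its first window, *MTA1* 3, *RBBP4* 2, *CHD4* 1 and *NCOR1* 0. The window listed for *CHD4* likewise lies inside the span of its gene. The first window of *RBBP4* also held 2 CCAAT boxes. Whether these motifs bear on the fold changes was not tested. Of 35116 promoter windows of the same length in the table, 42.6% held a GC box and 32.0% a CCAAT box. The cAMP response element TGACGTCA, held by 1.65% of all windows, was in none of the 13 windows listed for the 9 genes. The windows are GC-rich, with 71.6% G and C for *HDAC1*, 63.2% for *HDAC2*, 70.8% for *HDAC3* and 63.2% for *MTA2* against a median of 58.0% over all windows.

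*HDAC1*, the most abundant of the 9 transcripts per length, lies on chromosome 1 from 32292083 to 32333626. It had 8425, 8741 and 8640 normalized counts without VPA and 8484, 8915 and 8736 with it. The groups overlapped, with means of 8602 ± 161 and 8711 ± 217 (SD, n = 3 each). The log2 fold change was 0.02, with a 95% interval from -0.06 to 0.10 (adjusted p = 0.708, edgeR). On the TMM scale the interval leaves room for a difference of up to 0.10 in log2 at this depth. With library totals the gene was called higher at 0.15 (adjusted p = 0.0017, edgeR), and with ribosomal protein scaling at 0.29 (adjusted p = 7.43e-07, edgeR).

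*HDAC2*, the close relative of *HDAC1* on chromosome 6 from 113933028 to 113971148, had 5967, 6021 and 5765 normalized counts in the untreated libraries. The VPA-treated libraries had 5701, 6121 and 5959, so that the groups overlapped here as well. The 95% interval of the log2 fold change ran from -0.08 to 0.09 (adjusted p = 0.967, edgeR). By library totals the gene was called higher at 0.13, and with ribosomal protein scaling at 0.28 (adjusted p = 3.47e-06, edgeR). The ratio of the counts of *HDAC1* to those of *HDAC2*, which no scaling of the libraries can move, was 1.41, 1.45 and 1.499 in untreated and 1.49, 1.46 and 1.47 in VPA-treated libraries. This ratio overlapped between the conditions (exact permutation test, two-sided, p = 0.6). The transcript *HDAC2-AS2* on the opposite strand had 24 counts over the 6 libraries.

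*HDAC3* encodes the deacetylase of the NCOR complex and lies on chromosome 5 from 141620881 to 141636849. It had 2616, 2876 and 2792 normalized counts in untreated and 2345, 2226 and 2341 in VPA-treated libraries. Every VPA-treated library was below every untreated one. The mean fell from 2762 ± 133 to 2304 ± 67.4 (SD, n = 3 each), which on the log2 scale is a difference of -0.26 (SE 0.045, adjusted p = 2.82e-05, edgeR), although with ribosomal protein scaling the value was 0.01 and not called. Set against its relatives within each library, *HDAC3* had 0.311, 0.329 and 0.323 counts per count of *HDAC1* in untreated cells and 0.276, 0.250 and 0.268 in VPA-treated cells. This ratio was 0.824 times as high after VPA, without overlap between the conditions. The ratio of *HDAC3* to *HDAC2* was 0.834 times as high, again without overlap. For both ratios the exact permutation test, two-sided, gave p = 0.1, the smallest that 3 libraries against 3 allow, and a Benjamini-Hochberg adjusted value of 0.157 over the 11 ratios computed.

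**Figure D2:**
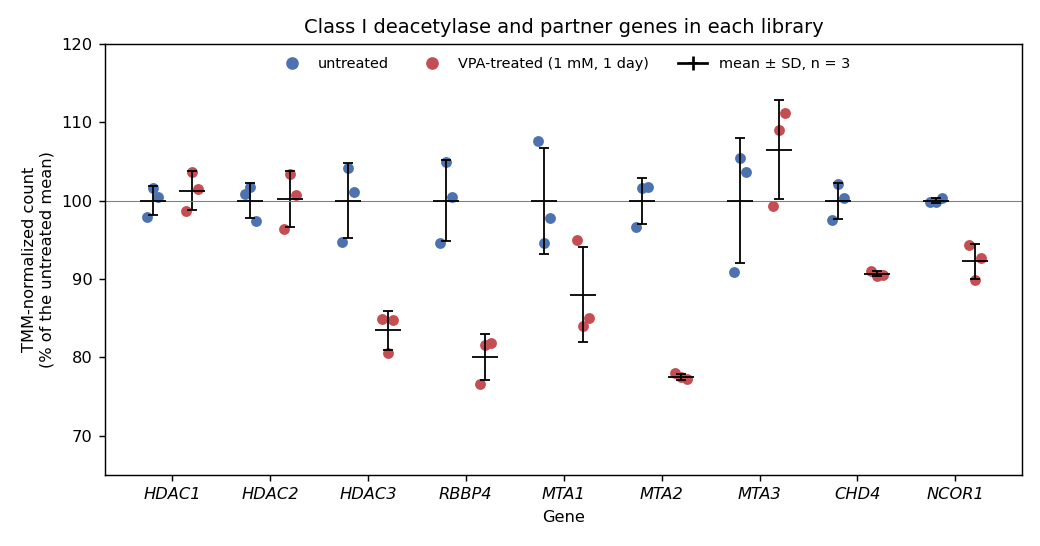
TMM-normalized counts of the 9 genes in each of the 6 libraries as a percentage of the untreated mean of the gene (vertical axis), with the mean and SD of each condition (n = 3). The VPA-treated points of *HDAC3*, *RBBP4*, *MTA2*, *CHD4* and *NCOR1* lie below all untreated points of the same gene, while those of *HDAC1*, *HDAC2*, *MTA1* and *MTA3* overlap with them.

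*RBBP4*, the histone chaperone shared by NuRD, SIN3 and the Polycomb repressive complex 2, lies on chromosome 1 from 32651208 to 32686211. It had 9686, 10746 and 10280 normalized counts in untreated libraries. The VPA-treated libraries had 7846, 8354 and 8381, all below the untreated ones. The mean fell from 10237 ± 531 to 8194 ± 301 (SD, n = 3 each), or -0.32 in log2 (SE 0.044, adjusted p = 2.02e-06, edgeR). The value stayed negative at each of the 5 scalings, but with ribosomal protein scaling it was -0.05 and not called. RefSeq lists 7 pseudogenes named for *RBBP4*, and a read that fits a copy equally well is set aside by the counting, so its level is uncertain to that extent. *SYNC*, on the opposite strand over the end of the gene, had 89 counts over the untreated libraries and 170 over the others. The related chaperone gene *RBBP7* is on chromosome X and listed at 0 in all 6 libraries, as were all 1437 genes of that chromosome in the count files, so no statement on its level can be made.

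*MTA2* had the largest decrease of the 9 genes and was the 1 gene called lower at all 5 scalings. It lies on chromosome 11 from 62593214 to 62601865 and had 7682, 8086 and 8091 normalized counts in untreated libraries. The VPA-treated libraries had 6198, 6162 and 6139, which differ from each other by less than the untreated ones do. The mean fell from 7953 ± 235 to 6166 ± 29.8 (SD, n = 3 each), which on the log2 scale is a difference of -0.37 (SE 0.039, adjusted p = 4.88e-08, edgeR). The value was between -0.36 and -0.40 with each library left out in turn and -0.09 with ribosomal protein scaling.

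*MTA1*, on chromosome 14 from 105419827 to 105470729, varied more between replicates. It had 4154, 3653 and 3775 normalized counts in untreated and 3665, 3242 and 3284 in VPA-treated libraries. In each condition replicate 1 was the highest, and VPA-treated replicate 1 lay above 1 of the untreated libraries. VPA-treated cells differed from untreated ones by -0.18 in log2 (SE 0.052, adjusted p = 0.0046, edgeR), but the difference was -0.05 and not called by library totals, and 0.09 and not called when scaled on ribosomal protein genes.

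*MTA3*, the least abundant of the 9 transcripts, lies on chromosome 2 from 42494110 to 42756946. It had 741, 860 and 845 normalized counts in untreated and 810, 889 and 907 in VPA-treated libraries, and the groups overlapped. The log2 fold change of 0.09 had a 95% interval from -0.04 to 0.22 (adjusted p = 0.208, edgeR). With upper quartile scaling, library totals or ribosomal protein scaling it was called higher, at 0.16, 0.22 and 0.37.

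The 3 MTA scaffolds were compared with each other within each library. For each count of *MTA2* there were 0.0965, 0.106 and 0.104 counts of *MTA3* in untreated libraries and 0.131, 0.144 and 0.148 in VPA-treated ones. The *MTA3* to *MTA2* ratio was thus 1.37 times as high after VPA with no overlap (exact permutation test, two-sided, p = 0.1, adjusted 0.157), and its log2 difference was 0.42 at the lowest and 0.51 at the highest with a library left out. The ratios of *MTA1* to *MTA2* and of *MTA3* to *MTA1* were 1.13 and 1.21 times as high, but both overlapped between the conditions (p = 0.3 each in the same exact permutation test).

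*CHD4* lies on chromosome 12 from 6570082 to 6607379 and drew the most counts of the 9 genes. It had 15338, 16052 and 15787 normalized counts in untreated libraries and 14315, 14213 and 14241 in VPA-treated ones. The groups did not overlap, and the mean fell from 15726 ± 361 to 14256 ± 52.4 (SD, n = 3 each). VPA-treated cells differed from untreated ones by -0.14 in log2 (SE 0.040, adjusted p = 0.0039, edgeR), which is close to the median of -0.12 for well-counted genes. With upper quartile scaling the difference was -0.08 and not called (adjusted p = 0.109, edgeR). With library totals it was -0.01 and not called, and with ribosomal protein scaling the gene was called higher at 0.13.

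*NCOR1*, the corepressor that binds and activates HDAC3, lies on chromosome 17 from 16029157 to 16215534. It had 4383, 4382 and 4405 normalized counts in untreated and 4140, 3946 and 4069 in VPA-treated libraries, without overlap. It differed by -0.12 in log2 (SE 0.039, adjusted p = 0.0126, edgeR), the smallest decrease among the 6 genes called. With upper quartile scaling it was at -0.05 and not called (adjusted p = 0.275, edgeR). Scaled on library totals it was at 0.02, and scaled on ribosomal protein genes it was called higher at 0.16. *TTC19*, on the opposite strand over the end of *NCOR1*, had 3597 counts over the untreated libraries and 3524 over the others, and the strand setting of the counting is not given in the sources used here. Of 4 pseudogenes named for *NCOR1*, 2 are in the count files, with 1 and 2 counts over the 6 libraries.

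Levels of different genes were compared per kilobase of the MANE Select transcript in GENCODE 44, as normalized counts. In untreated cells *HDAC1* had 4062 ± 76.2 per kilobase, followed by *MTA2* with 2580 ± 76.2 and *CHD4* with 2423 ± 55.6 (SD, n = 3 each). *HDAC3*, *MTA1* and *RBBP4* followed with 1429, 1345 and 1299 per kilobase, and their libraries overlapped from one to the next. *HDAC2* had 608, *NCOR1* 410 and *MTA3* 150 per kilobase, each apart from the one above it. In VPA-treated cells *CHD4*, at 2196 ± 8.08, stood above *MTA2*, at 2000.1 ± 9.66 (SD, n = 3 each), without overlap, and the other ranks were the same. When all exons of a gene were used as its length, *MTA2* kept its place above *CHD4* in VPA-treated cells and *RBBP4* ranked 4 from the top, so these 2 ranks depend on the transcript chosen. The low level of *HDAC2* per kilobase rests on a long MANE Select transcript of 9737 bases, against 2118 for *HDAC1*.

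**Figure D3:**
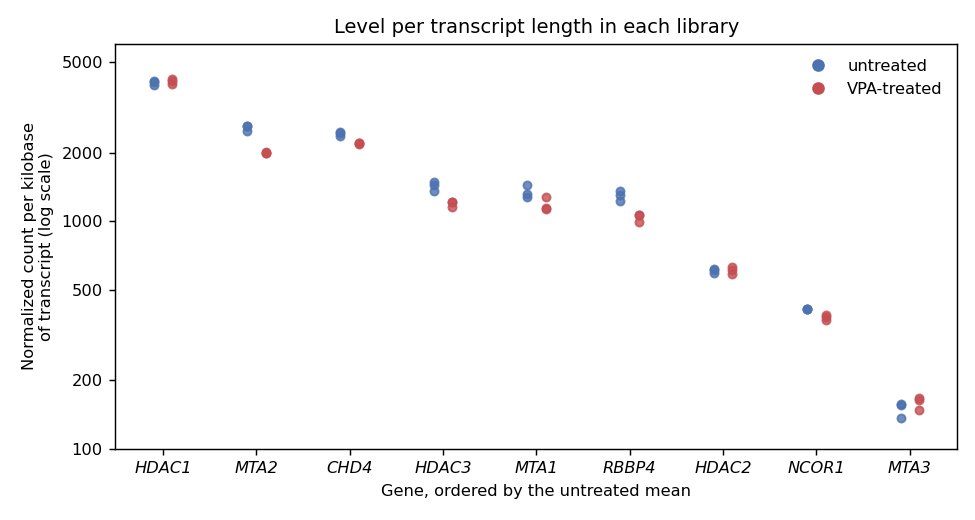
Normalized counts per kilobase of the MANE Select transcript (vertical axis, log scale) in each of the 6 libraries for the 9 genes, ordered by their untreated mean. *HDAC1* is highest at about 4062 per kilobase and *MTA3* lowest at about 150, and *MTA2* and *CHD4* exchange places after VPA.

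Shares within a family were computed from the same levels per kilobase, with no test. Of the summed level of the 3 deacetylase genes, *HDAC1* held 66.6% ± 0.365 without and 69.5% ± 0.655 with VPA (SD, n = 3 each). The share of *HDAC3* was 23.4% ± 0.578 and 20.2% ± 0.854, and that of *HDAC2* 9.97% ± 0.318 and 10.3% ± 0.204 (SD, n = 3 each). These shares depend on the transcript lengths. By normalized counts *HDAC2* stood above *HDAC3*, with means of 5918 against 2762 without and 5927 against 2304 with VPA. The *HDAC3* share fell by 3.26 percentage points in VPA-treated cells, without overlap between the libraries. Of the 3 MTA genes, *MTA2* held 63.3% ± 1.90 and 59.9% ± 1.18, *MTA1* 33.0% ± 2.20 and 35.4% ± 1.56, and *MTA3* 3.68% ± 0.296 and 4.78% ± 0.391 (SD, n = 3 each). In each library *HDAC1* and *MTA2* remained the main transcripts of their families.

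**Figure D4:**
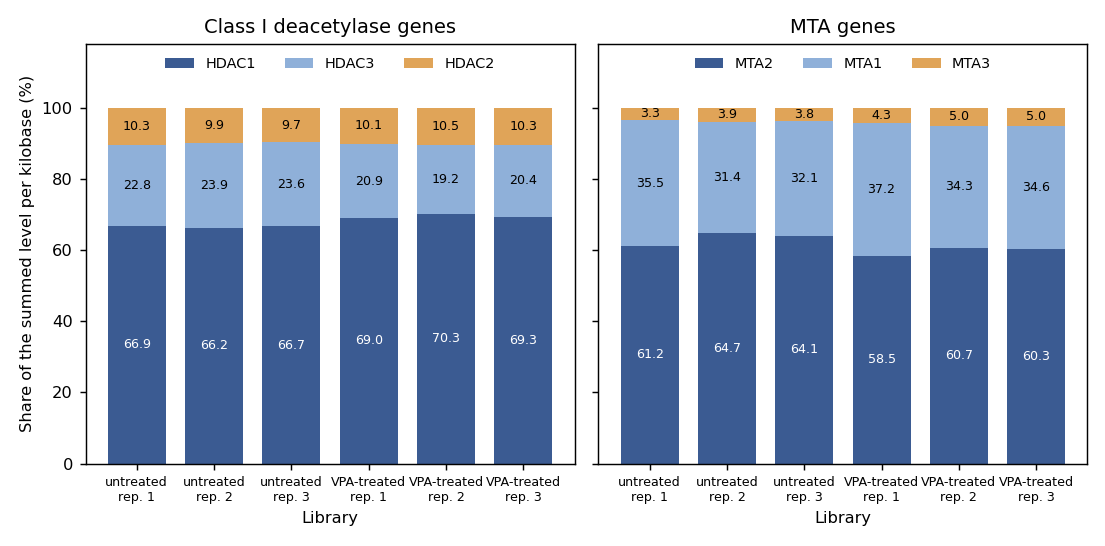
Shares in percent of the summed level per kilobase (vertical axis) held by *HDAC1*, *HDAC3* and *HDAC2* (left) and by *MTA2*, *MTA1* and *MTA3* (right) in each of the 6 libraries. The *HDAC3* share is 22.8% to 23.9% in untreated and 19.2% to 20.9% in VPA-treated libraries, and the *MTA3* share is 3.34% to 3.90% and 4.33% to 5.04%.

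The other subunits of the complexes that hold these enzymes were then examined, 38 genes in 5 lists. Of the 35 that were tested, 16 were lower, 8 were higher and 11 were not called with TMM, against 6 lower and 10 higher by library totals and 4 lower and 22 higher when scaled on ribosomal protein genes. With TMM 30.0% of all genes tested were lower and 32.9% higher, and of the well-counted ones 49.7% and 19.4%. The TMM count of lower partner genes lay between these shares. Of the 15298 genes tested, 2372 were lower and 6713 higher by library totals. When scaled on ribosomal protein genes, 833 were lower and 9357 higher. The median log2 fold change of the partner genes was -0.10. Scaled on library totals, *GATAD2A*, *GPS2*, *DNTTIP1* and *RCOR1*, which are described below as lower, were not called. The largest changes in both directions were found here and not among the 9 genes. The 3 untested genes, *RBBP7*, *TBL1X* and *ZMYM3*, are on chromosome X and listed at 0.

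Among the other NuRD subunits 4 were lower and 2 higher of 8 tested on the TMM scale. The shares were 30.0% lower and 32.9% higher over all genes tested, and 49.7% and 19.4% over the well-counted ones. *CHD5* is not among the well-counted genes. *MBD3*, a core subunit of NuRD with a methyl-CpG-binding domain, had 4931, 4328 and 4156 normalized counts in untreated and 2790, 2535 and 2486 in VPA-treated libraries. VPA-treated cells differed from untreated ones by -0.78 in log2 (SE 0.060, adjusted p = 1.30e-08, edgeR) and the alternative nearest to 0, scaling on ribosomal protein genes, gave -0.51. *MBD2*, which takes the place of MBD3 in a separate form of the complex, had 684 ± 28.4 and 639 ± 43.4 normalized counts (SD, n = 3 each) and was not called (adjusted p = 0.170, edgeR), although it was called higher at 0.18 when scaled on ribosomal protein genes and lower at -0.16 without VPA-treated replicate 3. The *MBD2* to *MBD3* ratio of counts was 0.137, 0.165 and 0.159 in untreated and 0.222, 0.241 and 0.277 in VPA-treated libraries, 1.60 times as high without overlap (exact permutation test, two-sided, p = 0.1, adjusted 0.157).

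The remodeller genes of NuRD moved in different directions. *CHD3*, a paralog of *CHD4*, had 6081, 6241 and 6322 normalized counts in untreated and 3903, 4037 and 3987 in VPA-treated libraries. VPA-treated cells differed from untreated ones by -0.64 in log2 (SE 0.039, adjusted p = 4.76e-12, edgeR). Relative to *CHD4* it was 0.706 times as high after VPA, again without overlap. *NAA38*, on the opposite strand over the start of *CHD3*, had 2904 and 2727 counts in untreated and VPA-treated cells. *CHD5*, the neuronal paralog, had 33.1, 33.5 and 27.3 normalized counts in untreated libraries and 82.4, 72.2 and 83.3 in VPA-treated ones. It passed both thresholds of the study at 1.34 in log2 (SE 0.16, adjusted p = 3.16e-07, edgeR), from 338 counts in all. For each count of *CHD4* there were 0.00173 to 0.00216 counts of *CHD5* in untreated and 0.00508 to 0.00585 in VPA-treated libraries, so *CHD5* remained a minor transcript. The zinc finger subunit *GATAD2A* was lower, with a log2 fold change of -0.21 (adjusted p = 0.00015, edgeR), although it was 0.06 and not called with ribosomal protein scaling. Its paralog *GATAD2B* was at -0.10 and not called with TMM, but it was called lower with DESeq2 size factors (-0.11, adjusted p = 0.037 in edgeR) and higher when scaled on ribosomal protein genes (0.17, adjusted p = 0.0031 in edgeR).

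**Figure D5:**
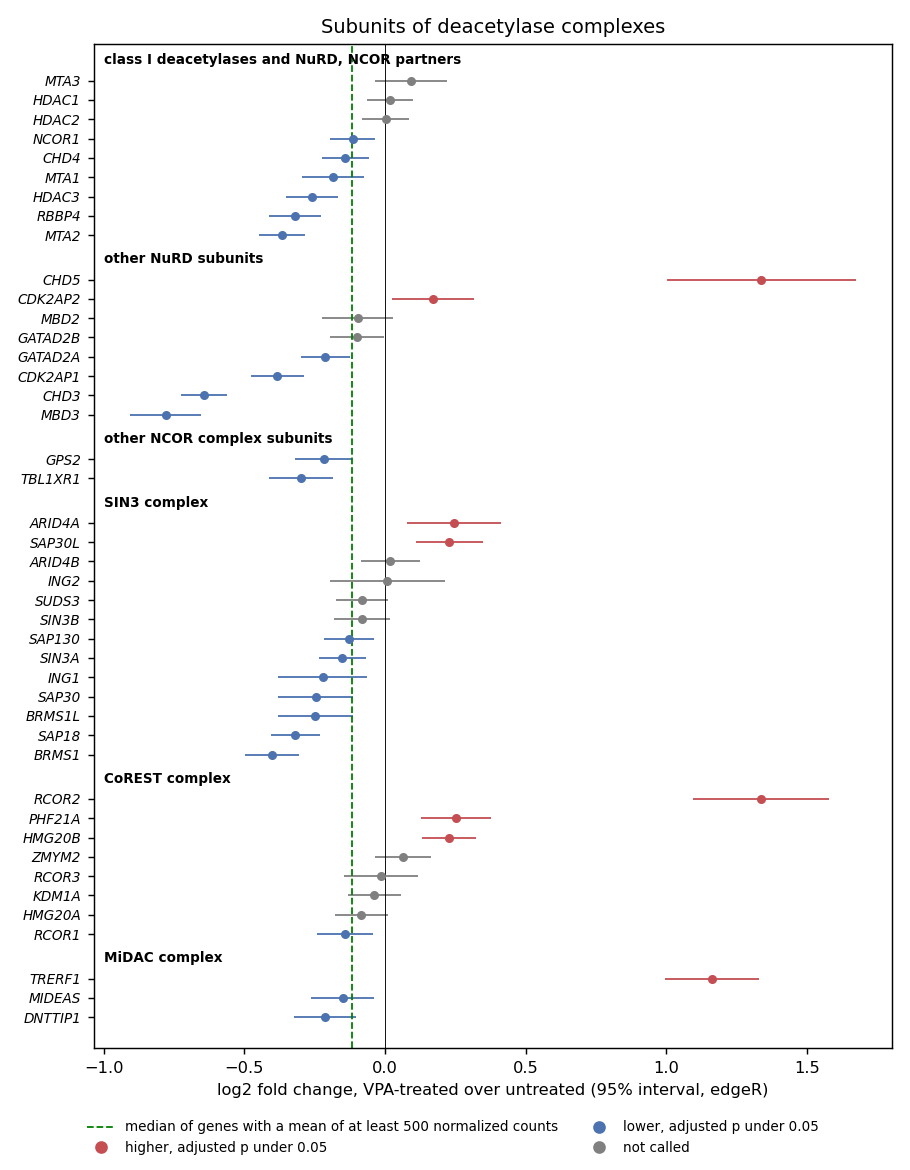
Log2 fold changes with 95% intervals (horizontal axis, edgeR with TMM) of the 9 genes and of 34 of the 35 tested partner genes, grouped by complex, with red for higher, blue for lower and grey for not called, and a dashed line at -0.12 for the median of genes whose mean normalized count was 500 or more. *CHD5*, *RCOR2* and *TRERF1* stand apart at the right between 1.16 and 1.34, and *MBD3* and *CHD3* at the left at -0.78 and -0.64.

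In the NCOR complex the subunit genes *TBL1XR1* and *GPS2* were lower on the TMM scale. *TBL1XR1*, a WD-repeat subunit that exchanges corepressors, had a log2 fold change of -0.30 (adjusted p = 6.89e-05, edgeR), and with ribosomal protein scaling it was -0.02 and not called. *GPS2* was at -0.22 (adjusted p = 0.00052, edgeR), and with that scaling at 0.06.

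Of the 13 genes of the SIN3 complex 7 were lower, 2 higher and 4 not called. Over all genes tested 30.0% were lower and 32.9% higher, and over the well-counted ones 49.7% and 19.4%. Some of the 13, such as *ARID4A* and *ING2*, are not in the well-counted class. The metastasis suppressor *BRMS1* had the largest decrease, from 1548 ± 31.2 to 1171 ± 34.5 normalized counts (SD, n = 3 each), or -0.40 in log2 (adjusted p = 1.40e-07, edgeR). *ARID4A*, an RB-binding subunit, was the highest at 0.24 (adjusted p = 0.0107, edgeR). The call of *ARID4A* was lost without untreated replicate 2 (0.17, adjusted p = 0.101 in edgeR) and without VPA-treated replicate 3 (0.20, adjusted p = 0.062 in edgeR), and with DESeq2 (0.22, adjusted p = 0.080).

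Of the 8 tested CoREST genes 3 were higher, 1 lower and 4 not called, where 32.9% of all genes tested were higher and 30.0% lower. Over the well-counted genes, to which *RCOR2* does not belong, 19.4% were higher and 49.7% lower. *RCOR2*, a scaffold related to *RCOR1* and known from stem and neural cells, had 92.1, 65.9 and 93.4 normalized counts in untreated and 208, 218 and 211 in VPA-treated libraries. It was higher by 1.34 in log2 (SE 0.12, adjusted p = 2.09e-09, edgeR). The more abundant *RCOR1* was at -0.14 (adjusted p = 0.0142, edgeR), but with ribosomal protein scaling it was called higher at 0.13, and without untreated replicate 2 it was not called (adjusted p = 0.070, edgeR).

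In the mitotic deacetylase complex MiDAC the zinc finger subunit *TRERF1* had 225, 184 and 199 normalized counts in untreated and 471, 455 and 437 in VPA-treated libraries. VPA-treated cells differed from untreated ones by 1.16 in log2 (SE 0.080, adjusted p = 4.48e-11, edgeR). The dimerization subunit *DNTTIP1* was at -0.21 (adjusted p = 0.0013, edgeR), and at 0.06 and not called with ribosomal protein scaling. With *CHD5* and *RCOR2*, *TRERF1* completes the 3 partner genes past both thresholds of the study in the upward direction. With edgeR 0 passed them in the downward direction. Among all genes tested 12.0% were past both thresholds upward and 0.503% downward, or 1.44% and 0.0967% of the well-counted ones. *CHD5*, *RCOR2* and *TRERF1* are not among the well-counted genes, so the share of 12.0% is the one to set beside them.

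Class I also includes *HDAC8*, which is on chromosome X and listed at 0, as is *HDAC6* of class II. Among the 6 other zinc-dependent deacetylases that were tested, 2 were higher, 1 lower and 3 not called, shares near or under the 32.9% and 30.0% over all genes tested. *HDAC9*, of class IIa, was the highest, at a log2 fold change of 1.58 from 374 counts in all (adjusted p = 7.57e-07, edgeR). *HDAC4* was the 1 gene called lower, at -0.18 (adjusted p = 0.0283, edgeR), but it was 0.09 with ribosomal protein scaling and it lost its call with DESeq2 (adjusted p = 0.070), with upper quartile scaling, by library totals, under the filter of 10 counts in every library, without untreated replicate 1 or 2 and without VPA-treated replicate 2 or 3. In a bulk library a change in all cells and a change in some of the cells cannot be told apart, which holds for every value given here.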

How the data were processed

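RNA-seq counts from 3 untreated and 3 VPA-treated HEK293T libraries were analysed. According to the paper's methods and the submitters' processing notes, from which the versions are taken, the authors sequenced strand-specific mRNA libraries on DNBSEQ, filtered the reads (SOAPnuke), used STAR 2.7.10b for alignment against hg38 and deposited raw counts of reads per gene from HTSeq 2.0.1 (the methods name a later HTSeq release). The annotation and strand setting of the counting are not given in the sources used here. HTSeq leaves out reads with several equally good positions, so genes with near-identical copies are undercounted.

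The 5 summary rows were removed (no feature 6.80% to 7.69%, ambiguous 1.97% to 2.10%, not unique 2.81% to 2.92% of the reads they and the genes hold). Of 47470 genes, 15298 passed filterByExpr (edgeR 4.0.16, R 4.3.3, minimum count 10) and were fitted together with TMM factors, glmQLFit (robust) and glmQLFTest, Benjamini-Hochberg adjustment and 0.125 as the prior count. Standard errors are the log2 fold change divided by the square root of F, and intervals are 95%. Totals of 18622267 to 18828495 counts per library set the precision, and SDs are between libraries. Replicates differed by more than sampling noise (chi-square per gene 1.62 to 4.80), so none was counted as a duplicate.

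Within-library ratios of raw counts were compared by exact permutation tests over the 6 libraries. Alternatives were DESeq2 1.42.0, 4 other scalings (the last on the median of 73 ribosomal protein genes), 2 other filters, an FDR of 0.01, a replicate block and each library left out. The fit was tested on simulated data. The 9 genes and all lists were chosen with earlier results of these data known. The genes named are the 9, the highest and lowest called gene of each list, listed genes past both thresholds, paralogs in ratios and listed genes at 0. Lengths are MANE Select transcripts in GENCODE 44, and positions and promoters are RefSeq on GRCh38.p14. Protein sequences were not analysed here, and the values of 1 partner gene, which stays in the counts of partner genes, and of a ratio are not reported here.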

Additional observations from a re-analysis of the deposited data

How the results depend on the processing

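The counts of calls depended on the scaling, by construction, since the scalings shift all genes together. Of the 9 genes, 0 were higher with TMM, 1 with upper quartile scaling, 3 with library totals and 5 when scaled on ribosomal protein genes. The lower ones of the 9 numbered 6 with TMM, 4 with upper quartile scaling, 3 by library totals and 1 by ribosomal protein genes. Of the 35 partner genes, 22 were higher by ribosomal protein genes, and the lower ones numbered 6 by library totals and 4 by ribosomal protein genes. Of all 15298 genes tested, 5037 were higher with TMM, 5810 with upper quartile scaling, 6713 by library totals and 9357 by ribosomal protein genes. The lower ones among all genes tested numbered 4591, 3413, 2372 and 833 in the same order. With each library left out, 0 of the 9 were higher and 5 to 6 lower, and 6 to 8 partners were higher and 14 to 18 lower. With ribosomal protein scaling the log2 fold change turned positive for *HDAC3* (0.014), *NCOR1* (0.16), *MTA1* (0.090), *CHD4* (0.13), *GATAD2A* (0.062), *GATAD2B* (0.17), *MBD2* (0.18), *GPS2* (0.057), *RCOR1* (0.13), *DNTTIP1* (0.061) and *HDAC4* (0.092), and with library totals for *NCOR1* (0.016), *GATAD2B* (0.030) and *MBD2* (0.034). Values near 0 turned negative for *HDAC1* with DESeq2 (-0.0063), without the filter (-0.0035) and with a library left out (-0.0028 to 0.036) and for *HDAC2* with DESeq2 (-0.022), DESeq2 size factors (-0.012), without the filter (-0.019) and with a library left out (-0.023 to 0.029). The *HDAC1* to *HDAC2* ratio differed by -0.0048 (without untreated replicate 1) to 0.038 in log2 with a library left out. Apart from the scalings, the cause was not tested. Of 126 alternative fits of the 9 genes, 99 kept both direction and call. Per kilobase of all exons, untreated *HDAC1* was at 2169 and *HDAC3* at 599.

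Same-numbered libraries correlated at 0.14, 0.021 and 0.080 in their deviations and other pairs at -0.11 to 0.031. These values do not settle whether the numbers mark pairs, and the main fit took none. With the replicate block 0 of the 9 genes were higher and 6 lower, and 8 partners were higher and 20 lower, *GATAD2B* among the latter (adjusted p = 0.016, edgeR). Depth limits *CHD5* and *HDAC9* (338 and 374 counts in all).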
